A study of Mus musculus with 16 samples.

Results

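Olfactory receptor genes were read from the gene annotation deposited with a study of mouse macrophages. The members were the Ensembl gene models of any biotype whose symbol begins with Olfr and a digit, and there were 1257 of them among 46078 Ensembl gene models. Of these, 1104 were annotated as protein-coding and 153 as pseudogenes. The series holds 16 libraries of bone-marrow-derived macrophages, which are cells grown from mouse marrow with the growth factor M-CSF, here at 50 ng/ml for 7 days. RNA-seq covered 3 untreated and 3 LPS libraries from WT C57BL/6 mice, and ribosome profiling, which reads the RNA fragments that ribosomes protect, covered 2 untreated and 2 LPS libraries of the same strain and genotype. RiboTag, in which RNA is pulled down with a tagged ribosomal protein, covered 2 untreated libraries, 2 at 6 h of LPS and 2 at 24 h, all of genotype LysM-Cre x RiboTag, with no strain in the labels. LPS is an outer membrane molecule of Gram-negative bacteria to which macrophages respond. LysM-Cre acts in macrophages and also in other myeloid cells, so it limits the tag to that lineage and not to macrophages alone. The LPS duration of single RNA-seq and ribosome profiling libraries, and the age of the mice, are not stated in the labels. The annotation holds 0 columns of values per library, so no expression level, depth or LPS difference is given for any receptor, and the marker genes of macrophages could not be checked.

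Olfactory receptors are G protein-coupled receptors with membrane-spanning segments through which odorants are sensed. A mature olfactory sensory neuron in the nose uses a single receptor gene, from a single allele, and receptor binding signals through the G protein subunit Gnal, the adenylyl cyclase Adcy3 and a cyclic nucleotide-gated channel that contains Cnga2. The family is divided into class I receptors, which are related to those of fish, and class II receptors, which make up most of the family in land vertebrates. Some receptors are also known outside the nose, Olfr78 in oxygen-sensing cells of the carotid body among them.

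The first bases of the receptor genes are shown because most models begin directly at the coding sequence. Windows of 300 bases around the gene start, 250 before it and 50 from it on, were matched from RefSeq in GRCm38.p6 for 926 of the 1104 coding members (83.9%). Each line gives the last 50 bases before the RefSeq gene start and the first 50 of the gene, with the first 3 bases of the gene in capitals. Olfr10 (chr11:49317498-49317597, plus strand) and Olfr1393 (chr11:49280100-49280199, plus strand) belong to 1 family and 1 cluster on chromosome 11, with Olfr1392 between them. Olfr611 (chr7:103518333-103518432, minus strand) and Olfr612 (chr7:103539183-103539282, minus strand) are neighbours of 1 family on chromosome 7. Olfr17 (chr7:107097417-107097516, plus strand), also called P2, is a receptor used to trace sensory neurons to the olfactory bulb. Olfr1440 (chr19:12394215-12394314, plus strand) is known as a receptor for musk odorants. The models of these 6 members open at ATG, the start codon.
Olfr10: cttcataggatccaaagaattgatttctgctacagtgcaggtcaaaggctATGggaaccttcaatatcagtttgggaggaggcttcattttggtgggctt
Olfr1393: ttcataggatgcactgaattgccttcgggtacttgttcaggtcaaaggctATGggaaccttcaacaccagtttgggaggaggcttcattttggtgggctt
Olfr611: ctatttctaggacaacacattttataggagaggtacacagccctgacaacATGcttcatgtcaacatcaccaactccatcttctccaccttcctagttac
Olfr612: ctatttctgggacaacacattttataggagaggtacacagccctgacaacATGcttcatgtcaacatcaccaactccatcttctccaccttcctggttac
Olfr17: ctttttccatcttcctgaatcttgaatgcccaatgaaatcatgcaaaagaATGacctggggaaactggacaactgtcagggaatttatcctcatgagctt
Olfr1440: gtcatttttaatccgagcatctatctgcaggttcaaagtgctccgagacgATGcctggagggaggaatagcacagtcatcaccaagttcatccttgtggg
By contrast, Olfr558 (chr7:102702273-102702372, plus strand), a class I receptor also known from blood vessels, and Olfr124 (chr17:37805019-37805118, plus strand) open upstream of the coding sequence.
Olfr558: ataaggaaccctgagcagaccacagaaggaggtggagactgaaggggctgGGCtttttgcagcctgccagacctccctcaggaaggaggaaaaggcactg
Olfr124: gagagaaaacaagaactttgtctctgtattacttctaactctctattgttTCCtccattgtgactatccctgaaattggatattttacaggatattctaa

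Among the 930 windows of coding members, counting 4 members with 2 windows each, 677 had ATG as the first 3 bases of the gene (72.8%, Wilson 95% interval 69.8 to 75.6). In the windows of genes that are not members the share was 3.87% (1234 of 31915), and the 6 windows of pseudogene members are in neither set. Intervals of this kind regard the windows or models as a sample and reflect counting error alone. Of the 677 windows that open at ATG, 667 opened at the very base where the deposited annotation starts the coding sequence (CDS). The share was 76.0% for class I members (79 of 104 windows) and 73.4% for class II members (583 of 794), with intervals that overlap. Type 1 vomeronasal receptor genes, which code for receptors of the pheromone-sensing organ, reached 87.9% (181 of 206). These 181 windows are part of the 1234 windows of other genes that open at ATG. The windows of other genes were not limited to coding genes, whereas those of members were. A window that opens at ATG holds sequence next to the start codon, and where its transcript begins is not given by such a model.

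Within a family, identity after the start ranged widely, when bases were compared position by position without gaps. Olfr10 and Olfr1393 shared 96.0% of the first 50 bases of the gene and 46.0% of the 50 bases before it. Olfr611 and Olfr612 shared 98.0% of the bases on each side over the same lengths, and 95.6% of all 250 bases before the start. The measure was then taken over adjacent members whose windows both open at ATG. In 221 such pairs of 1 family the median identity was 68.0% after the start (quartiles 34.0 and 88.0) and 31.2% over the 250 bases before it (quartiles 28.0 and 37.2). In 124 pairs of 2 families the medians were 36.0% after the start (quartiles 30.0 and 52.5) and 28.4% before it (quartiles 26.8 and 30.0), so the quartile ranges overlap on both sides. A single inserted or deleted base lowers this measure for every base beyond it. In 3 of the 221 pairs the bases before the start were over 80% identical, and these pairs were Olfr611 with Olfr612, Olfr243 with Olfr628 and Olfr9 with Olfr763.

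The bases before receptor starts were poor in G and C. The median over the 250 bases was 33.2% G and C for the 677 member windows that open at ATG and 36.0% for the 253 that open elsewhere, against 44.4% in the 1234 windows of other genes that open at ATG and 52.8% in all windows of other genes. The letters TAATTA or TAATTG, the core recognised by many homeodomain proteins such as Lhx2, were found on either strand in 36.6% of the member windows that open at ATG, in 37.9% of those that open elsewhere, in 15.5% of the windows of other genes that open at ATG and in 11.3% of all 32851 windows. The letters TATAAA, read on both strands, were found in 41.9%, 30.4%, 20.3% and 12.4% of the same 4 sets. The letters TCCC, any 2 bases and GGGA, recognised by Ebf proteins, were found in 3 of 677 windows (0.443%), in 1 of 253 (0.395%), in 0.81% of the windows of other genes that open at ATG and in 0.779% of all windows. These matches are a description of letters in the windows, and base composition differs between the sets. A run of 12 bases with at least 10 C or T, then any base, then CAG, which is the look of a splice acceptor, was found on the gene's strand in the last 100 bases before the start in 26.4% of member windows that open at ATG, 11.5% of those that open elsewhere, 12.2% of the windows of other genes that open at ATG and 10.4% of all windows of other genes.

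The receptor models made up 4.98% of the 22159 protein-coding Ensembl genes and 1.73% of the 8839 pseudogenes. Of the 153 pseudogene members, 112 were labelled unprocessed (copies of a gene with its surroundings), 19 processed (copies made from RNA), 13 of unspecified kind, 7 transcribed unprocessed, 1 transcribed processed and 1 polymorphic. These kinds are labels of the annotation. A single exon was found in 94.7% of the processed and 88.4% of the unprocessed members. The polymorphic pseudogene was Olfr421-ps1 (chr1:174151481-174152530, plus strand), whose model carries a CDS of 315 codons. A polymorphic pseudogene is one that is intact in some strains.

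Members lay on 19 chromosomes. Chromosome 2 held 350 members (27.8%), chromosome 7 held 261, chromosome 9 held 136 and chromosome 11 held 103. Of the coding genes of chromosome 2, 15.6% were receptors, and 11.8% of those of chromosome 7. Pseudogenes made up 18.3% of the members on chromosome 2, 22.3% on chromosome 11 and 3.68% on chromosome 9. All 66 members of chromosome 10 and all 40 of chromosome 14 were coding. Manual annotation had a part in the models of 140 of the 153 pseudogene members and 591 of the 1104 coding members. The members of chromosome 10 were all automatic Ensembl models, made without manual annotation. Whether pseudogene shares by chromosome follow the extent of manual annotation was not tested. Chromosomes 5 and 12 held pseudogene members alone, 3 and 1 in number.

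**Figure D1:**
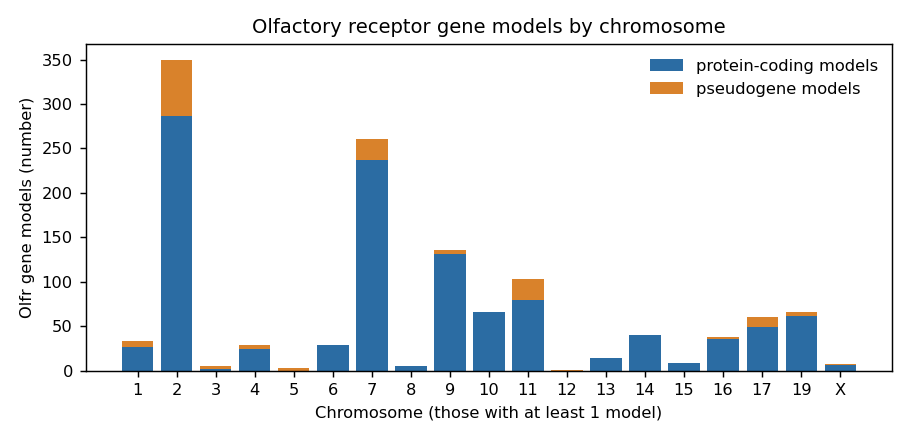
Bars give the number of Olfr gene models on each chromosome that holds at least 1, split into protein-coding (blue) and pseudogene (orange) models. Chromosome 2 with 350 models and chromosome 7 with 261 stand highest, and the bars of chromosomes 6, 8, 10, 13, 14 and 15 hold no pseudogene.

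Clusters were formed from neighbours whose starts lay at most 100000 bases apart, and 60 clusters of 2 or more members were found, with 32 members left alone. The 26 clusters of at least 10 members held 1055 of the 1257 members (83.9%, interval 81.8 to 85.9). The median distance between neighbouring starts was 18108 bases (quartiles 11677 and 28061). Just inside the limit were distances of 94423, 93966 and 92254 bases, and just outside it 103804, 106762 and 110806. The limit falls in a thin range, with 9 distances from 80000 to 100000 bases and 6 from 100000 to 120000.

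The largest cluster lay on chromosome 2 (chr2:85579241-90296859, Olfr996 to Olfr1273-ps) with 261 members, 45 of them pseudogenes, over 4718 kb. The second lay on chromosome 7 (chr7:102476773-104207009, Olfr543 to Olfr650-ps1) with 106 members over 1730 kb. The next cluster, on chromosome 9 (chr9:37711348-40188094, Olfr160 to Olfr986), held 98 members with 3 pseudogenes. On chromosome 10 a cluster of 57 members (chr10:128989849-130211149, Olfr9 to Olfr827) held no pseudogene member, though 1 pseudogene of another symbol lay inside it. The models of these 57 members were all automatic. The fifth by size lay on chromosome 17 (chr17:37085191-37953022, Olfr90 to Olfr761) with 47 members, 11 of them pseudogenes, and held the major histocompatibility genes H2-M2 and H2-M3 and the ubiquitin-like gene Ubd between its receptors. Together these 5 clusters held 45.3% of the members.

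**Figure D2:**
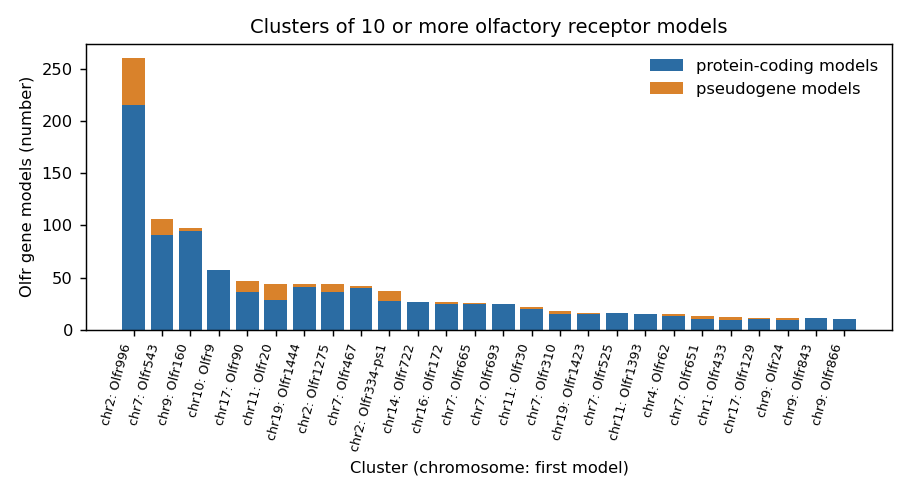
Bars give the number of models in each of the 26 clusters with at least 10 members, coding in blue and pseudogene in orange, named by chromosome and first model. The chromosome 2 cluster from Olfr996 holds 261 models and the smallest cluster shown holds 10.

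Some of the clusters also held other coding genes. Of the 26 large clusters, 15 contained no other protein-coding Ensembl gene, and the 26 contained 35 in all. The 35 include Gm13741, Gm13757 and Gm13762 on chromosome 2, whose exons cover all exon bases of Olfr1134, Olfr1182 and Olfr1213 on the same strand. Such models are not separate neighbours of the receptors. Another of the 35 was Tlr11, a Toll-like receptor of innate immunity, in the chromosome 14 cluster from Olfr722 to Olfr749. A smaller cluster of 9 on chromosome 15, from Olfr288 to Olfr279, enclosed the milk protein gene Lalba and 3 other coding genes.

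Pseudogene members lay near coding members, as coding members themselves did. In 143 of 153 cases (93.5%, interval 88.4 to 96.4) the pseudogene shared a cluster with a coding receptor, and no cluster held pseudogenes alone. Of the 19 processed pseudogenes, 14 shared such a cluster. Clustering was general, since only 22 of the 1104 coding members lay alone. The median distance to the nearest coding member was 10898.5 bases for 110 unprocessed and 19355 bases for 17 processed pseudogenes. For coding members the median to the nearest other coding member was 15096 bases. For the pseudogene distances, 149 of the 153 pseudogenes had a coding member on their chromosome. The spliced length of pseudogene members had a median of 927 bases (lowest 204, highest 1342), close to the 948 bases of coding members. Of the 32 members alone, 10 were pseudogenes (31.2%, interval 18.0 to 48.6), against 11.7% of the 1225 clustered members. The members farthest from any other were the processed pseudogenes Olfr289-ps1 and Olfr1398-ps1 on chromosome 3, at 45485600 and 45173526 bases, and the coding member Olfr466 on chromosome 13, at 43449223 bases.

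Neighbours tended to lie on the same strand. Of 1165 neighbour pairs within clusters, 806 were on the same strand (69.2%, interval 66.5 to 71.8), 186 had starts facing away from each other and 173 had starts facing each other. Of the 43 clusters with 5 or more members, 6 lay wholly on 1 strand, one of them the 15 coding members from Olfr1393 to Olfr1380 on chromosome 11. The closest pair was Olfr831-ps1 and Olfr832, on opposite strands with starts 442 bases apart.

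Families were taken from the MOR names among the RefSeq synonyms, a naming scheme for mouse odorant receptors in which numbers up to 42 mark class I and numbers from 101 on mark class II. A single family was found for 1165 members, in 224 families. Neighbours belonged to 1 family in 63.0% of the 1018 pairs in which both had a family. For pairs on the same strand the share was 71.2% (500 of 702, interval 67.8 to 74.5), and for pairs on opposite strands 44.6% (141 of 316, interval 39.2 to 50.1). The 2 intervals do not overlap. The pairs share members with each other and are not independent.

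Most families stayed in 1 place. Of the 168 families with at least 2 members, 122 (72.6%) lay in a single cluster and 142 on a single chromosome. MOR204, with 31 members, and MOR245, with 24, each lay in 1 cluster. MOR256 was the largest family with 53 members, and it was spread over 11 clusters or lone positions on 4 chromosomes, with 14 of its members in the chromosome 11 cluster that holds Olfr10 and Olfr1393. MOR103, the family of Olfr2, had 17 members in 7 clusters or lone positions on 4 chromosomes. Symbol numbers followed position, since 867 of the 1165 neighbour pairs (74.4%) had numbers that differ by 1.

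Class I receptors were gathered on chromosome 7. The 137 class I members formed 42 families, and 134 of them (97.8%) lay in 3 neighbouring clusters within chr7:102476773-105369355, a region of 2892.6 kb. These 3 clusters held 145 members, 126 coding and 19 pseudogenes, with 74 on the plus and 71 on the minus strand. Besides the class I members they held 1 class II member, Olfr626-ps1, and 10 members without a single family. The class I members outside were Olfr503 and Olfr504, in a class II cluster farther along chromosome 7, and the processed pseudogene Olfr1397-ps1 on chromosome 11, which lies within the span of Cep112 on the opposite strand.

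The class I region also held 28 other coding genes. Among them were the 5 beta-globin genes, Hbb-bt, Hbb-bs, Hbb-bh2, Hbb-bh1 and Hbb-y. These lay within the 93966 bases between the starts of Olfr67 and Olfr66, which is the second widest distance inside any cluster. Between Olfr650-ps1 and Olfr651 lay 346.9 kb with 10 Trim genes, among them Trim5 and Trim30a, which belong to a family with antiviral members. Between Olfr664 and Olfr665 lay 146.4 kb with 3 Usp17 deubiquitinase genes. These last 2 stretches are what divides the region into 3 clusters under the limit used.

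**Figure D3:**
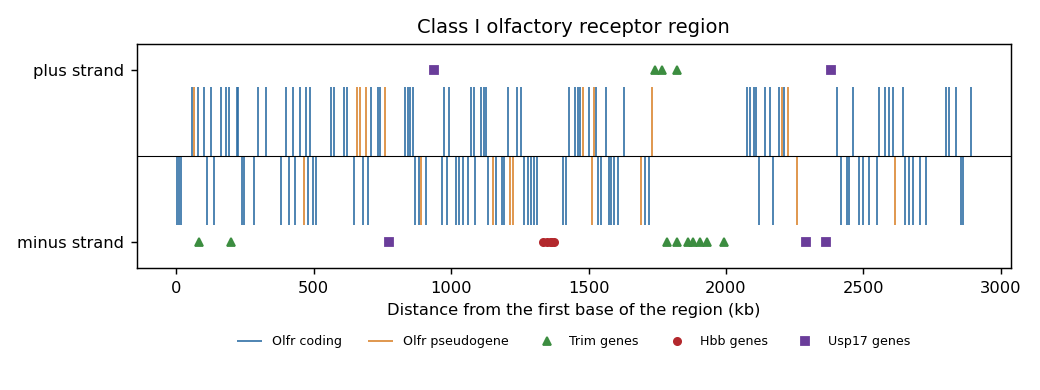
Lines give the starts of the 145 Olfr models of the class I region, upward for the plus and downward for the minus strand, against the distance in kb from its first base, with Trim, Hbb and Usp17 genes as symbols at their strand. The 5 Hbb genes sit in 1 break between receptors and 10 of the 12 Trim genes in the widest break, of 346.9 kb.

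Class I and class II coding members differed slightly in length. The median was 317 codons for 121 class I members with a complete CDS (quartiles 314 and 319) and 312 codons for 908 class II members (quartiles 310 and 316), and the ranges overlap. Of coding members, 19.5% of class I and 32.6% of class II had a 5′ untranslated region, with intervals of 13.5 to 27.4 and 29.7 to 35.7. Pseudogenes made up 10.2% of class I members (interval 6.19 to 16.4) and 8.46% of class II members (interval 6.91 to 10.3). These shares rest on 14 and 87 pseudogenes, and the other pseudogenes had no single family.

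**Figure D4:**
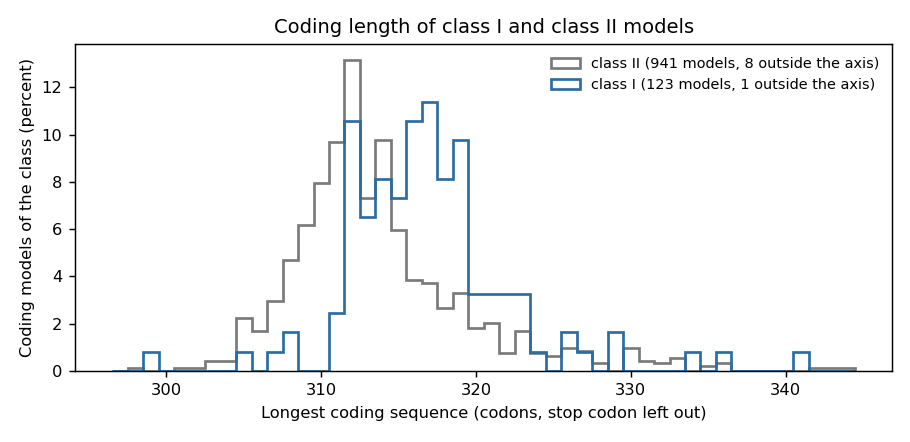
Stepped lines give the percent of coding models at each length in codons, for 941 class II (grey) and 123 class I (blue) models, with the few models beyond the axis counted in the key. Class I lies to the right of class II, with medians of 317 and 312 codons among complete models.

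The coding sequence was of nearly fixed length and unbroken. The median over 1065 coding members with start and stop codon lines was 313 codons (quartiles 311 and 317), and 1068 of all 1104 (96.7%) had a longest CDS of 300 to 330 codons. The CDS lay within 1 exon in 1090 members (98.7%, interval 97.9 to 99.2), against 11.6% of 20711 other protein-coding genes. No transcript had more than 1 exon in 971 members (88.0%), against 6.51% of other coding genes. These members were 38.5% of the 2525 protein-coding genes of the annotation with a single exon. Of all 1104 coding members, 754 had no untranslated base in their models, against 4.35% of other coding genes. An untranslated exon, where a gene has one, cannot be seen in such models, so the single-exon share describes the models.

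Among other chemosensory receptors, type 1 vomeronasal genes had a similar form and type 2 genes did not. Of 205 type 1 genes, 93.2% had a single exon and the median was 307 codons. None of the 124 type 2 genes, whose receptors carry a large extracellular domain, had a single exon, and their median was 854 codons. Of the trace amine receptor genes, which code for amine sensors, 14 of 15 had a single exon. Pseudogenes made up 12.2% of the olfactory receptor members, 35.7% of type 1 and 43.9% of type 2 vomeronasal genes. These shares count only pseudogenes that carry the symbol of the family. The largest receptor cluster, on chromosome 2, also held 26 pseudogenes of other symbols, and the chromosome 17 cluster of 47 members held 14. Whether those are receptor copies was not tested.

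Untranslated regions were missing from most receptor models. A 5′ untranslated region was annotated for 340 coding members (30.8%, interval 28.1 to 33.6), against 94.1% of other coding genes. Neither end had an untranslated base in 754 members (68.3%), against 4.35%. This share was 68.8% for type 1 vomeronasal genes, 73.4% for type 2 genes and 93.3% for trace amine receptor genes. A 5′ untranslated region was annotated for 59 of 205 type 1, 26 of 124 type 2 and 1 of 15 trace amine receptor genes. Missing untranslated regions were therefore not particular to olfactory receptor models. An intron within the 5′ untranslated region was annotated in 107 members (9.69%), and its bases had a median of 2904. Of the 513 coding members with automatic Ensembl models, 205 had a 5′ untranslated region (interval 35.8 to 44.3%). Of the 586 whose models were merged with manual annotation, 133 had one (interval 19.5 to 26.3%). A single transcript was annotated for 1019 coding members (92.3%).

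A few models were far from this form. Olfr225 had the longest CDS with 419 codons, followed by Olfr94 with 386 and Olfr735 with 354. The shortest were Olfr443-ps1 with 77, Olfr1187-ps1 with 100 and Olfr779 with 130 codons, and the RefSeq table lists all 3 as pseudogenes. The narrowest spans were those of Olfr1187-ps1 with 387, Olfr779 with 390 and Olfr1289 with 897 bases. The least spliced lengths were 300 bases in Olfr1187-ps1, 390 in Olfr779 and 444 in Olfr831-ps1. Olfr613 had the greatest spliced length with 5137 bases, followed by Olfr1443 with 4335 and Olfr536 with 3850. Olfr112 had the longest 5′ untranslated region with 2032 bases, followed by Olfr613 with 1419 and Olfr78 with 1215. In Olfr137, Olfr282 and Olfr693 it was 1 base long. After Olfr56 the most exons were 5, in Olfr138, Olfr701 and Olfr1229. Olfr1260 and Olfr287 had 5 transcripts each, and Olfr138 and Olfr376 had 4. Only 14 coding members spanned over 10000 bases, and after Olfr56 the widest were Olfr872 with 23752 and Olfr18 with 22203 bases.

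Of 18 receptors with a known ligand or a use as a marker, 17 were members. Olfr78 (chr7:102740721-102759471, minus strand), a class I receptor for short-chain fatty acids, had 4 exons, a CDS of 320 codons and a 5′ untranslated region of 1215 bases. Olfr558 (chr7:102702331-102712054, plus strand), of the same family MOR18, had 2 exons and a 5′ untranslated region of 121 bases. Olfr2 (chr7:107000875-107002605, minus strand), also called I7, an aldehyde receptor, had 2 exons and 327 codons. Olfr544 (chr7:102484114-102488307, minus strand), a class I receptor for azelaic acid, had 2 exons and 334 codons. The other 13 had a single exon.

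These 13 included receptors with and without untranslated bases. Olfr16 (chr1:172956382-172957817), a receptor also called MOR23 and known from sperm, had a 5′ untranslated region of 415 bases. It lay alone, with no other member within the limit. No single family was found for it, so this name is not read as a family or class here. Olfr15 (chr16:3838975-3839913) lay alone as well and had no untranslated base. Olfr73 (chr2:88034196-88035137), a eugenol receptor also called mOR-EG, had 313 codons, no untranslated base, and 38.9% of its exon bases shared with the processed transcript Gm13747. Olfr1507 and Olfr1509, which lie in 1 cluster of 7 on chromosome 14, had 5′ untranslated regions of 84 and 22 bases. Olfr17, Olfr160, Olfr691, Olfr1019, Olfr1393, Olfr10 and Olfr1440 had none, and Olfr124 had 78 bases. Olfr2, Olfr78, Olfr1507 and Olfr1019 were without a RefSeq window under these symbols.

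The remaining receptor, Olfr151 (also called M71), was present as a model added from outside Ensembl (chr9:37729977-37731061, minus strand). Its CDS of 929 bases is not a multiple of 3, leaving 2 bases over, and the RefSeq table lists it as a transcribed pseudogene.

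Genes through which olfactory neurons use these receptors were set beside other coding genes for a 5′ untranslated region and a single exon only. Of a list of 19 odour transduction, receptor trafficking and regulatory genes, all 19 were found as coding models and all had a 5′ untranslated region. Only Omp, the olfactory marker protein, had a single exon, and the median was 7 exons. Among the 20711 coding genes outside the receptor families, 94.1% had a 5′ untranslated region and 6.51% had a single exon. Adcy3 had 22 exons, Cnga2 had 7, and the receptor transporters Rtp1 and Rtp2 had 2 each.

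Olfr56 (chr11:48978889-49135387, plus strand) had the widest span of all members, 156499 bases, and the most exons, 6 in 1 of its 3 transcripts. Its longest intron measured 108043 bases. Within the span lay 4 coding genes that are not receptors: Tgtp1, Tgtp2 and Ifi47, which code for interferon-inducible GTPases, and 9930111J21Rik2. The receptor gene Olfr1396, of the same family MOR276, and 3 pseudogenes lay there too. Olfr56 still counted as a lone member, because its outermost start lay 135985 bases from the start of Olfr1396. The exon of 111 bases at chr11:49087034-49087144, present in all 3 transcripts, lay inside an Ifi47 exon (chr11:49086700-49087144) on the same strand and ended at the same base. These 111 bases are 5.36% of the exon bases of Olfr56 and 4.79% of those of Ifi47. How reads over this exon were assigned was not measured.

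The 2 first exons of Olfr56 were alike in their surroundings. Each was 102 bases long, and they lay 71844 bases apart. The start of the opposite-strand gene 9930111J21Rik1 lay 509 bases downstream of the first base of the outer one, and the start of 9930111J21Rik2 lay at the same distance from the first base of the inner one.

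**Figure D5:**
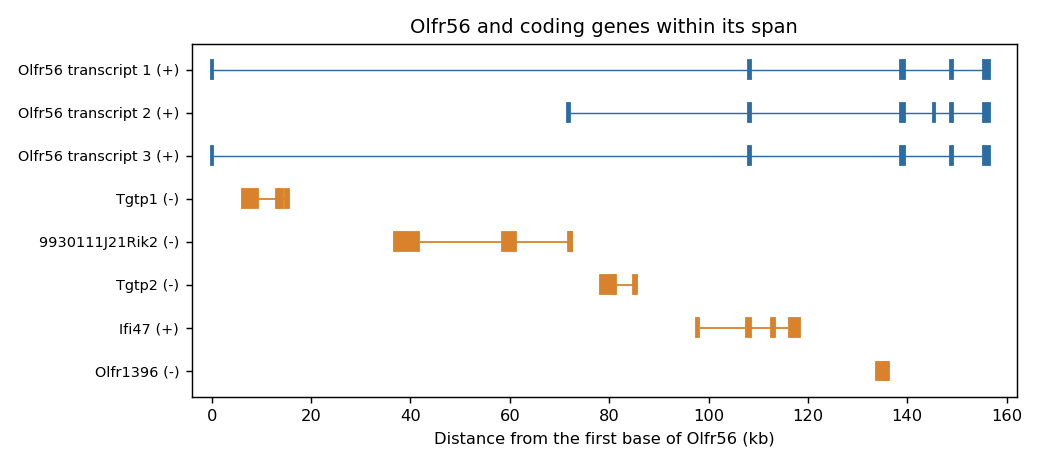
Boxes give exons and lines introns of the 3 Olfr56 transcripts (blue) and of 5 coding genes within its span (orange), against the distance in kb from the first base of Olfr56, with boxes drawn 0.5 kb wider than the exon so that short ones can be seen. An Olfr56 exon of 111 bases falls on an Ifi47 exon.

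RefSeq placed the same receptor differently. Its Olfr56 gene began at base 49134173 and ended at 49135387, with a length of 1215 bases. The window is shown with its bases from chr11:49134123-49134222 on the plus strand, and the capitals here mark an ATG inside the gene that is in frame with the deposited CDS.
Olfr56: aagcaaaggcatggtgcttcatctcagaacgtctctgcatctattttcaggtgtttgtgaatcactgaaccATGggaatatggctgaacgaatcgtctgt
This ATG lay at base 49134194, 96 bases or 32 codons before the deposited CDS start at 49134290. In every deposited transcript the last exon began at 49134288 and the exon before it ended at 49127929. The ATG therefore lay in an intron of the deposited models. The deposited CDS had 283 codons, and with the 32 the count would be 315, near the median of 313. The 9 codons of that frame inside the window held no stop codon, and the 67 bases between the window's end and the deposited CDS start were not read here.

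Few coding members shared exons with other models. In 22 coding members over 50% of the exon bases also lay in same-strand exons of a different gene model (1.99%, interval 1.32 to 3.0). In 14 of these the other gene was a model of another Olfr symbol, added from RefSeq or from an unknown source. In 5 it was an Ensembl coding gene: Spata22, a gene of meiosis, over Olfr20, and Gm13741, Gm13757, Gm13762 and Gm20715 over Olfr1134, Olfr1182, Olfr1213 and Olfr1344. In 3 it was a pseudogene model, over Olfr113, Olfr115 and Olfr141. The most shared bases were 1076 in Olfr1434, which lay fully on the added model Olfr1433, and 996 each in Olfr250 and Olfr1344. With Ensembl models alone the share was 0.725% (8 members). The span of 4930516K23Rik on chromosome 7 enclosed 9 members from Olfr638 to Olfr646, of which 3 shared exon positions with it on either strand.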

How the data were processed

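The measurement used here is a gene annotation in GTF format, deposited by the authors as the one processed file read here, with start and end positions counted from 1 on 1544831 lines. It holds 0 columns of values per sample, so the 16 libraries enter no comparison, no test was run and the depth is unknown. Per the submitters' processing notes, TopHat2 2.1.1 and the mm10 build are listed. The steps that produced the annotation are not given in the sources used here.

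Models were read in Python (3.11.15) with scipy 1.17.1, numpy 2.4.6 and pandas 2.3.3. Lines of source RefSeq or unknown were kept apart as added models. A gene's start is the 5′ end of its outermost transcript. Codons exclude the stop codon and come from the longest CDS. Shares carry Wilson 95% intervals. Code was tested on simulated models, with structure and cluster right in 500 of 500 genes and shared bases in 200 of 200 cases. Names and synonyms came from a RefSeq table and start windows from a RefSeq sequence table, both of GRCm38.p6. Gene IDs of 1166 members were found in a symbol table.

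The members, the lists and the motifs were chosen with earlier results of these data known. Members named are 18 known receptors, the 3 at each end of span, spliced length, exons, transcripts, codons and 5′ untranslated length (none at the low end of exons and transcripts, where most members tie at 1), the 5 largest clusters, the 3 most distant members, the polymorphic pseudogene and the 3 coding members with most shared bases. Other members named, the Olfr56 exon details, the windows printed and the pairs with similar windows were chosen after their values were seen. Alternatives covered sources, distance limits, transcripts and sharing rules.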

Additional observations from a re-analysis of the deposited data

How the results depend on the processing

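No paired analysis was possible because the annotation holds no value per sample and no test was run. Of 34 alternatives, 24 stayed within the interval or within 1.5 times the reported count and 10 moved beyond. Leaving out automatic Ensembl models lowered the coding members from 1104 to 591 and the share with a single exon from 88.0% to 85.8%. A limit of 50000 bases between starts gave 112 clusters in place of 60. The share of members in clusters of at least 10, reported as 83.9%, was 69.5% at a limit of 50000 bases, 87.8% at 200000, 89.3% at 500000, 90.9% at 1000000 and 81.2% with coding members only. The share of coding members mostly shared was 0.725% among Ensembl models alone, against 1.99%. The share of pseudogenes near a coding member was 81.7% when the nearest had to lie within 25000 bases, against 93.5% by cluster. Motif shares, window identity and MOR families were computed under 1 setting. Positions and names are those of this annotation, and models without untranslated regions give no transcription start.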

Other observations

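Names and coding status differed between sources for a small number of receptors. The annotation gave 16 members a coding biotype under a symbol that ends in -ps and a number, and 13 pseudogene members a symbol without it. The RefSeq table listed 14 of 1102 coding members as pseudogenes (1.27%), among them Olfr844 with 309 codons, and 8 of 146 pseudogene members as coding (5.48%), among them Olfr663 and Olfr1375. Olfr1532-ps1 and Olfr911-ps1, with 307 and 311 codons, were coding in both.

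Another symbol stood beside the gene ID in the symbol list for 13 members, and in 11 cases it was the symbol of another member. The names Olfr1117-ps1 and Olfr1118, Olfr1120 and Olfr1150-ps1, Olfr1185-ps1 and Olfr1186, and Olfr1267-ps1 and Olfr1269 were exchanged between a pseudogene and a coding model on chromosome 2. A value joined to these receptors by symbol and one joined by gene ID would therefore belong to different models.

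Outside the members, 27 added models carried an Olfr symbol, 25 of them with a CDS. Of these 27, 17 shared exon bases with a member of another symbol, 14 of them over all their exon bases, and 10 shared none. The added models Olfr207 and Olfr208 had the same positions (chr16:59361299-59362216, minus strand) and lay fully on Olfr209. In 4 added models the CDS was not a multiple of 3.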
